A study of Homo sapiens with 33 samples.

Results

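The HOX genes encode homeodomain transcription factors that lie in 4 clusters, and 39 protein-coding HOX genes of the human genome, all of them members of HOXA, HOXB, HOXC or HOXD, were followed here through a gonadal differentiation of human embryonic stem cells. Members were taken by name and biotype from the deposited table of 58735 genes, 19951 of which are protein coding, and all 39 were found. A further entry named HOXC5 with another biotype was left out. In coordinates of GRCh38, HOXA spans chr7:27092993-27200106 (11 genes, minus strand), HOXB chr17:48528526-48729178 (10 genes, minus strand), HOXC chr12:53938765-54056030 (9 genes, plus strand) and HOXD chr2:176092891-176190907 (9 genes, plus strand).

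Within a cluster the genes are numbered by paralogue group, and low numbers are used earlier and nearer the head of the embryo than high numbers, a relation known as colinearity. The proteins bind DNA together with TALE cofactors of the PBX, MEIS and PKNOX families and give cells their position along the trunk. In the embryonic trunk, CDX factors, WNT, FGF and retinoic acid signals open the clusters, and Polycomb and Trithorax proteins hold the silent and the active state. In the text, paralogues 1 to 3 are called anterior, 4 to 8 central and 9 to 13 posterior.

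Bulk RNA-seq covered 33 libraries in 11 groups of 3 replicates, all from H9-DDdCas9VP192-FOXL2 clone 24, a single clone of the H9 line in which a drug-stabilised dCas9 activator with guides to FOXL2 switches on the endogenous gene. Every culture followed the same protocol to day 4, with activin A, CHIR, dorsomorphin and ROCK inhibitor on day 0, BMP7 and CHIR on day 1, and dorsomorphin and CHIR on days 2 and 3. The day 4 group was taken before activation, CTRL cultures received neither inducing compound, and IND cultures received doxycycline (DOX) and trimethoprim (TMP) from day 4. CTRL and IND were collected on days 6, 8, 10, 12 and 14. Replicates are wells of 1 experiment, so that p-values measure the spread between wells. Effects of DOX, TMP or the activator itself cannot be told apart from those of FOXL2. No library came from cells given the compounds without the activator or without the FOXL2 guides. The libraries held 23940837 to 51912815 counts (median 41420455), and all levels below are in FPKM (fragments scaled to gene length and library size). FOXL2 was between 0.00685 and 0.131 FPKM in the day 4 and CTRL libraries and between 50.5 and 196 FPKM in the IND libraries. Day 10 IND replicate 2 stood apart: its 5 pluripotency markers summed to 476 FPKM against 81.9 and 98.6 FPKM in the other two wells, and it had the fewest counts. The HOX calls, separations and floor days of day 10 are given with and without it.

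Upstream windows of a central and an anterior gene described below are shown here, to give the letters next to their start sites. RefSeq (GRCh38.p14) listed windows from 250 bases before to 50 after the start for 20 of the 39 genes, 27 windows in all, of which 26 are distinct. HOXC4, a central member called on 3 days, and HOXB1, the most abundant member on day 4 and chosen after its values were seen, are printed as the 250 bases before the start, with letters that match a searched motif in capitals. The HOXC4 window is chr12:54016638-54016887 on the plus strand. RefSeq listed the same window for HOXC5, although the HOXC5 gene counted here starts downstream of it, at chr12:54032853. The HOXB1 window is chr17:48531012-48531261 on the minus strand.
HOXC4: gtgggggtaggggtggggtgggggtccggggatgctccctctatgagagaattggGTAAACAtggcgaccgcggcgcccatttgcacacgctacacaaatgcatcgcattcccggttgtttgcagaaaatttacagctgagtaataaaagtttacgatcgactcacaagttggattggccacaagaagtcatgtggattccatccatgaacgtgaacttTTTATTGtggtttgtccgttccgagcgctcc
HOXB1: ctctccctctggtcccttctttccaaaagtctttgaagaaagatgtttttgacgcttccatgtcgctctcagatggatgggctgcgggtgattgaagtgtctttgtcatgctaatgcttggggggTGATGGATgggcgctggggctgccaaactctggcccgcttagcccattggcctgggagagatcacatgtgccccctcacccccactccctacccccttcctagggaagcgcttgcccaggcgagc

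Motifs of 3 kinds were searched on both strands of the whole windows. The CDX-type letters TTTATNG were in 6 of the 26 distinct HOX windows (23.1%) and in 9.74% of all 34935 distinct windows of the table, and the genes were HOXA3, HOXA9, HOXA10, HOXC4, HOXC5 and HOXD8. The forkhead letters GTAAACA were in 1 HOX window (3.85%), the one that HOXC4 and HOXC5 share, against 3.42% of all windows. The joint PBX and HOX letters TGATNNAT were in 3 HOX windows (11.5%), those of HOXA2, HOXB1 and HOXD11, against 7.42% of all. These matches describe letters and are not sites, and the windows of one gene can overlap.

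Anterior genes held most of the HOX level on day 4, and central and posterior genes took it over by day 14 (CTRL). The anterior class summed to 252 ± 28.7 FPKM on day 4 (SD, n = 3) and made up 82.0% of the HOX level, against 42.6 ± 15.03 FPKM for the central and 12.5 ± 9.17 FPKM for the posterior class. On day 14 in CTRL the same sums were 99.3 ± 7.11, 188 ± 39.3 and 77.6 ± 30.4 FPKM. The sum of all 39 genes was 307 ± 12.0 FPKM on day 4 and 365 ± 76.1 FPKM on day 14 in CTRL. HOXB carried most of it in CTRL, 266 ± 17.4 FPKM on day 4 and 262 ± 51.8 FPKM on day 14. HOXC rose from 2.32 ± 0.336 to 43.9 ± 8.58 FPKM, and HOXD stayed low at 2.31 ± 1.15 and 6.87 ± 1.92 FPKM. In bulk RNA, fewer cells that use a gene and less RNA of it per cell cannot be told apart.

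**Figure D1:**
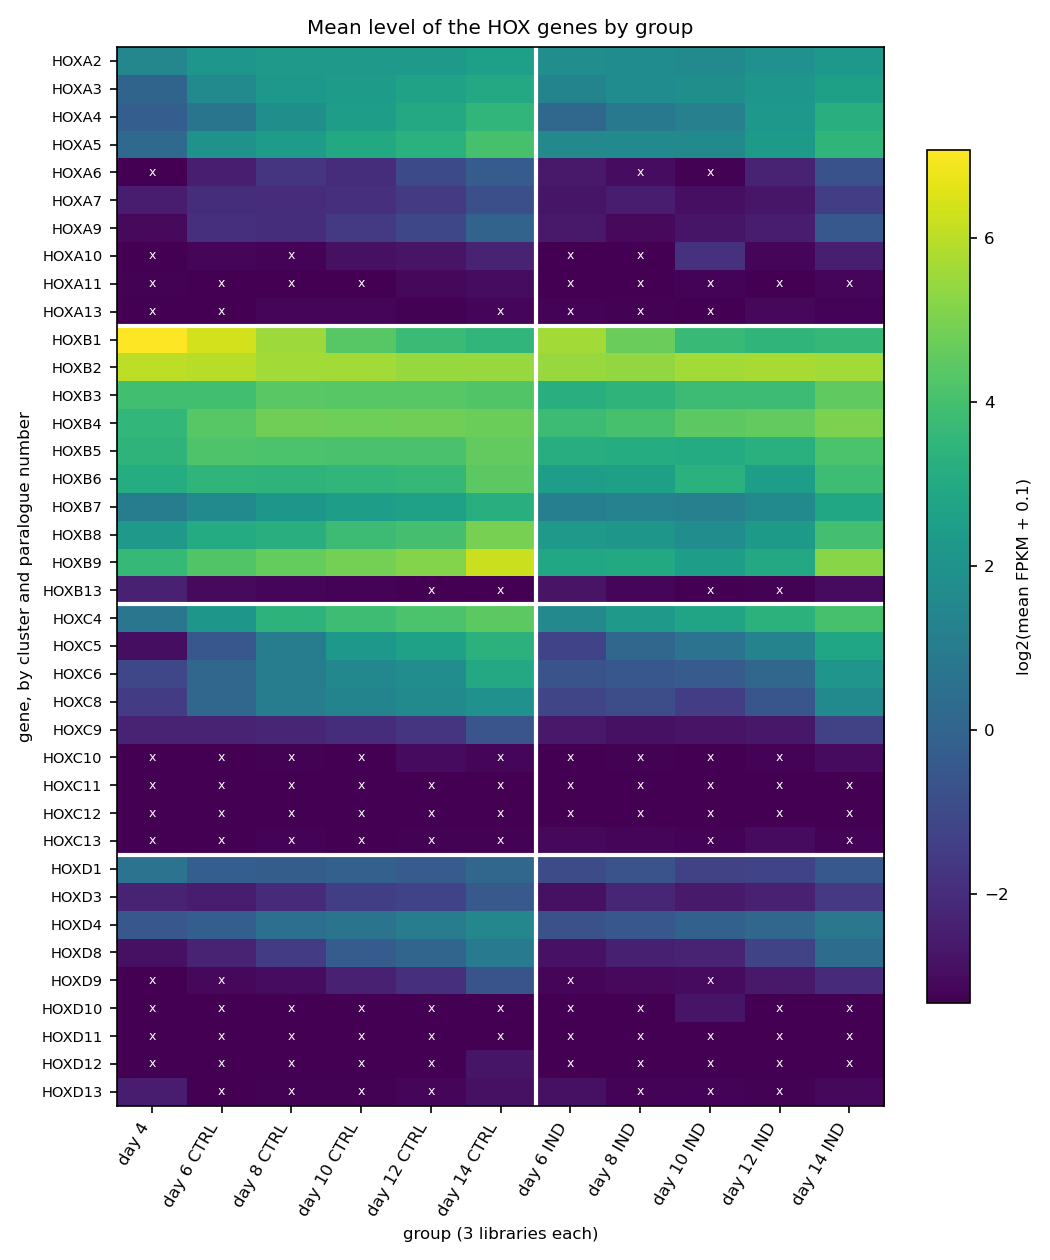
Mean FPKM of the HOX genes reported by name (rows, by cluster and paralogue number) in the 11 groups (columns, 3 libraries each), coloured as log2(mean FPKM + 0.1); a cross marks a gene with at most 3 counts in all 3 libraries. The upper genes of HOXB are bright on day 4, genes further down each cluster gain level over the days up to paralogue 9, and paralogues 10 to 13 stay dark in every group.

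With a floor of more than 3 counts in every library of a group, 28 of the 39 genes passed in at least 1 group and 11 in none. Those 11 were HOXA11, HOXA13, HOXB13, HOXC10, HOXC11, HOXC12, HOXC13, HOXD10, HOXD11, HOXD12 and HOXD13, all of them paralogues 10 to 13. HOXC12 and HOXD11 had no count in any library, and HOXB13 was the highest of the 11, with 26 counts in 1 day 4 library. On day 4 all 8 anterior genes were above the floor, as were 11 of 15 central genes but only 1 of 16 posterior genes, HOXB9. In CTRL the count of genes above the floor went from 20 on day 4 to 28 on day 12 and 27 on day 14. In IND it was 20, 22, 17 and 22 on days 6, 8, 10 and 12, with 7 anterior genes on day 6 and 6 on day 10. Leaving out 1 library gave 17 to 23 genes on day 10 in IND.

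Of the 28 genes that passed in at least 1 group, 20 were above the floor in the day 4 libraries that both arms share. Only the other 8 could therefore differ between the arms in their first day above it. Of the 8, 6 passed the floor later in IND and none earlier. The share over all genes is not given and the floor depends on library depth, so this count does not set HOX genes apart. The 6 later genes were HOXA7, HOXA9 and HOXC9 (day 6 in CTRL, day 14 in IND), HOXD9 (day 10 and day 14), and HOXA6 and HOXA10 (day 12 and day 14). These days rest on few counts. HOXA9 had 11, 4 and 44 counts in day 6 CTRL, and HOXA7 had 6, 6 and 3 in day 6 IND. HOXC9 had 5, 5 and 9 counts in day 6 CTRL and did not pass the floor in day 8 CTRL, with 15, 8 and 2. Without day 10 IND replicate 2, HOXA9 passed on day 10 in IND and the days of the other 5 were as given. On day 14, 28 genes were above the floor in IND. HOXA10 reached 44 counts in day 10 IND replicate 2, against at most 20 in any other library.

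The first comparison asks how the clusters changed as CTRL cultures differentiated away from day 4. Calls are at an adjusted p under 0.05 by the quasi-likelihood test of edgeR, with Benjamini-Hochberg adjustment over every gene tested, and the 5 comparisons share the day 4 libraries. On day 6, 8 HOX genes were called higher and 1 lower of 22 tested, against 11.0% of all genes tested called higher and 10.6% lower. The higher and lower counts were 13 and 3 of 23 on day 8 (18.1% and 18.9% of all genes), 18 and 3 of 25 on day 10 (23.1% and 22.0%), 17 and 3 of 24 on day 12 (24.4% and 23.8%), and 22 and 3 of 27 on day 14 (24.6% and 22.9%). On day 14 all 15 central and all 4 posterior genes tested were called higher, while of 8 anterior genes 3 were called higher and 3 lower. Members near 0 on day 4 could pass the filter on low counts only through their CTRL level, so these counts over the genes tested lean towards rises. The 9 calls of day 6 were 5 without day 4 replicate 1, CTRL replicate 1 or CTRL replicate 3, and 17 without day 4 replicate 3.

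HOXB1, an anterior gene of the hindbrain known to sustain its own expression with PBX partners, had the highest level on day 4. It had 153, 144 and 107 FPKM in the day 4 libraries and 11.1, 12.3 and 10.8 FPKM in the day 14 CTRL libraries. Its log2 fold change was -0.71 ± 0.16 (SE) on day 6 (adjusted p = 0.0103) and -3.58 ± 0.16 on day 14 (adjusted p = 8.6e-07). HOXB2, another anterior gene of the hindbrain, fell by 0.59 ± 0.14 on the log2 scale on day 14 (adjusted p = 0.00649).

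HOXA5, a central gene with roles in lung and trunk patterning, was the most abundant HOXA gene on day 14 in CTRL. Its level was 1.16, 0.504 and 1.55 FPKM on day 4 and 16.1, 22.3 and 10.6 FPKM on day 14 (3.90 ± 0.40 on the log2 scale, adjusted p = 5.61e-05). HOXC4 led HOXC with 1.64, 1.69 and 1.39 FPKM on day 4 and 23.4, 23.5 and 18.3 FPKM on day 14, and its log2 fold change was 3.77 ± 0.16 (adjusted p = 7.8e-07). HOXC5, with 1, 0 and 4 counts on day 4, went from at most 0.0707 FPKM in those libraries to 10.3, 13.2 and 7.11 FPKM on day 14 (log2 fold change 8.23 ± 0.52, adjusted p = 3.6e-06), and 59.9% of its exonic bases are shared with other genes.

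HOXB9, a posterior gene of the thoracic region, led HOXB and all members on day 14 in CTRL, but with wide spread between wells. Day 4 libraries held 8.94, 5.44 and 22.3 FPKM, day 12 CTRL libraries 69.6, 17.6 and 19.1 FPKM and day 14 CTRL libraries 77.9, 103 and 45.0 FPKM. Its log2 fold change was 0.63 ± 0.49 on day 6 (adjusted p = 0.408) and 2.61 ± 0.48 on day 14 (adjusted p = 0.00178). On day 14 its range overlapped that of the next member, HOXB2, whose mean was 44.8 ± 3.83 FPKM. HOXD4, the leading HOXD gene, went from 0.59, 0.259 and 0.981 FPKM on day 4 to 3.52, 2.38 and 2.13 FPKM on day 14 (2.11 ± 0.44, adjusted p = 0.00364), and 80.5% of its exonic bases are shared with other genes.

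**Figure D2:**
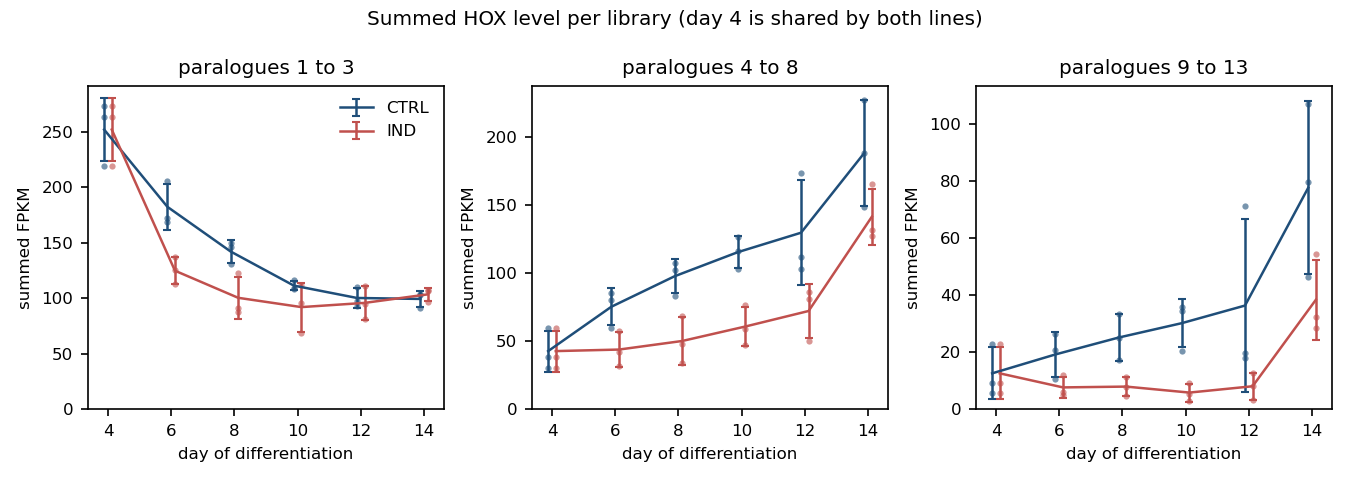
Summed FPKM of the anterior (paralogues 1 to 3), central (4 to 8) and posterior (9 to 13) HOX genes against day of differentiation; points are libraries, lines join means and bars are SD (n = 3), blue for CTRL and red for IND with the same day 4 libraries. The anterior sum falls in both arms, the central and posterior sums lie lower in IND than in CTRL on days 6 to 12, and on day 14 the mean IND sums are 103 (anterior), 141 (central) and 38.3 FPKM (posterior).

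The second comparison asks how the HOX genes differed between IND and CTRL within a day. On day 6, 5 of 21 tested HOX genes were called lower and none higher in IND, against 2.37% of all genes called lower. On day 8, 8 of 23 were called lower (6.67% of all genes). On day 10, none of 24 was called by edgeR (1.18% of all genes called lower). An unadjusted p under 0.05 was found for 9, and DESeq2 called 6. The share over all genes is not given for unadjusted p or DESeq2, here or below, so those counts do not set HOX genes apart. On day 12, 2 of 26 were called lower (3.04% of all genes), and on day 14, 4 of 28 were called lower and 1 higher (5.22% and 3.21% of all genes). These counts moved with single wells. On day 6 they were 2 without CTRL replicate 1, 3 without CTRL replicate 3, IND replicate 2 or IND replicate 3, and 10 without IND replicate 1. On day 8 dropping CTRL replicate 1 left 3 calls, CTRL replicate 3 left 5, IND replicate 2 left 4 and IND replicate 3 gave 18. On day 12 dropping any of the CTRL replicates left 1 call, IND replicate 1 gave 5 and IND replicate 2 left 0. On day 14 dropping CTRL replicate 1, 2 or 3 gave 2, 0 and 11 calls, and IND replicate 1, 2 or 3 gave 3, 1 and 1.

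The libraries themselves separated more often than the calls show. All 3 IND libraries lay below all 3 CTRL libraries in FPKM for 7 of 21 tested HOX genes on day 6 (10.3% of all genes tested), 13 of 23 on day 8 (16.4%), 19 of 24 on day 10 (17.0%), 17 of 26 on day 12 (16.8%) and 6 of 28 on day 14 (14.5%). The IND libraries lay above CTRL for none on days 6, 8 and 10 (8.61%, 16.8% and 14.2% of all genes), for HOXB2 on day 12 (13.6%), and for HOXB3 and HOXB4 on day 14 (12.4%). Without day 10 IND replicate 2, both remaining IND libraries lay below CTRL for 20 of the 24 genes on day 10 (23.9% of all genes tested).

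The fitted difference was more negative at higher paralogue numbers, which is given as a description. Members near the floor in IND, such as HOXA9 and HOXD9 on day 12, could pass the filter on low counts only through CTRL, which leans their fold changes to negative values. On day 8 the median log2 fold change was -0.49 over 8 anterior, -1.02 over 14 central and -1.66 for the 1 posterior gene tested, and the median over all genes was 0.0049. On day 12 it was -0.42, -1.14 and -2.18 over 8, 15 and 3 genes, with 0.0195 over all genes, and on day 14 -0.26, -0.52 and -0.88 over 8, 15 and 5 genes. Across the genes tested, which share libraries and are not independent, Spearman's rho between log2 fold change and paralogue number was -0.742 on day 8 (n = 23) and -0.755 on day 12 (n = 26). Over the 21 members with a mean of at least 50 counts across all 33 libraries, it was -0.757 on day 8 and -0.812 on day 12, with HOXB9 as the 1 posterior gene. The posterior sum is nearly all HOXB9, which made up 93.7% to 98.6% of it in the 11 groups. The posterior sum was 33.4, 17.1 and 24.8 FPKM in the day 8 CTRL libraries and 4.53, 7.71 and 11.4 FPKM in the day 8 IND libraries, which do not overlap. The ratio of the mean sums of IND over CTRL was 0.314 ± 0.171 on day 8 and 0.494 ± 0.264 on day 14 for posterior, 0.513 ± 0.190 and 0.751 ± 0.192 for central, and 0.706 ± 0.144 and 1.04 ± 0.0967 for anterior genes (errors propagated from the SDs of 3 libraries).

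**Figure D3:**
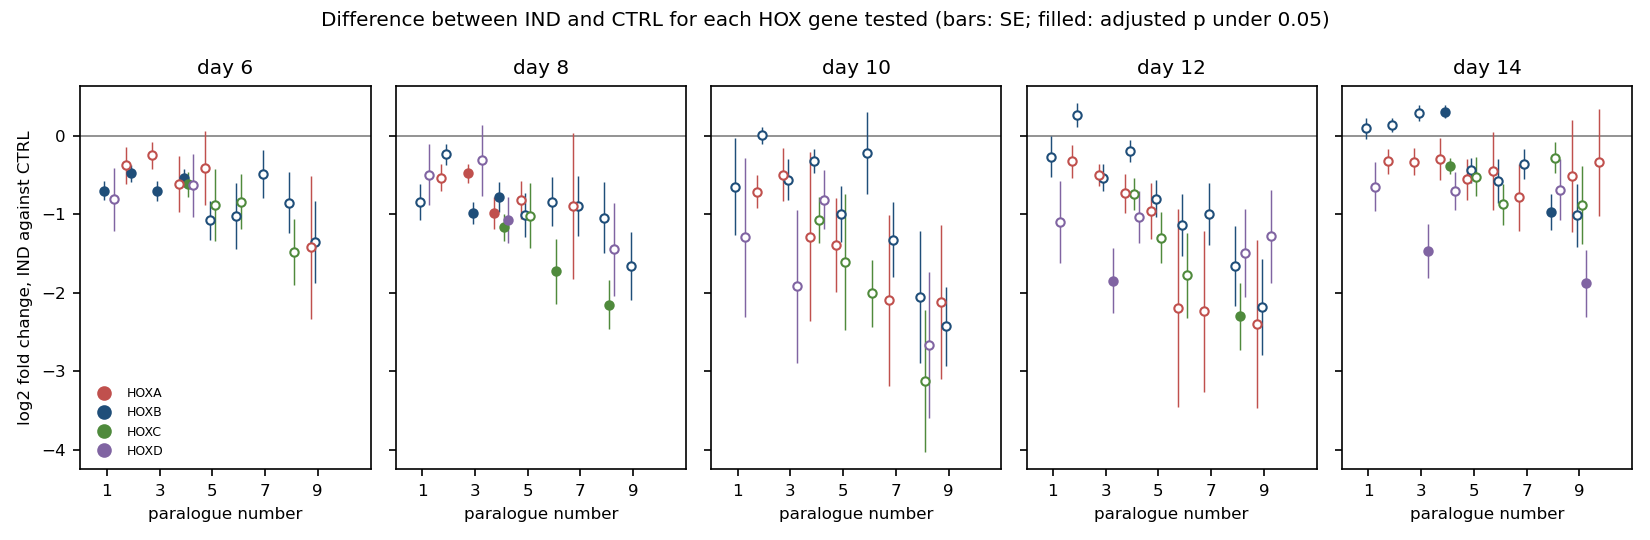
Log2 fold change of IND against CTRL for each HOX gene reported by name and tested on each day, by paralogue number (clusters in colour, shifted sideways for clarity); bars are SE and filled points have an adjusted p under 0.05. Most points lie below 0 on days 6 to 12 and move further down with the paralogue number, and on day 14 they sit nearer 0.

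HOXC8, a central gene with a thoracic expression domain and no exonic base shared with another gene, had the largest called difference. Its day 8 level was 2.62, 1.46 and 2.03 FPKM in CTRL and 0.287, 0.508 and 0.565 FPKM in IND (log2 fold change -2.15 ± 0.31, adjusted p = 0.000989). On day 12 it was 5.09, 2.30 and 1.52 FPKM in CTRL and 0.577, 0.571 and 0.641 FPKM in IND (-2.30 ± 0.43, adjusted p = 0.0183). On both days the groups did not overlap. On day 14 CTRL had 3.15, 4.01 and 4.14 FPKM and IND 3.71, 2.40 and 3.10 FPKM, which overlap (-0.28 ± 0.20, adjusted p = 0.472). The day 8 call held in 6 of 6 fits that left out 1 library, and the day 12 call in 4 of 6.

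HOXB3 and HOXB4, anterior and central neighbours of the HOXB cluster that mark hindbrain and haematopoietic progenitors, were called lower in IND on days 6 and 8, and on day 14 only HOXB4 was called higher. They share exonic bases with each other, and 13.2% of the HOXB3 and 17.1% of the HOXB4 bases are shared with any gene. HOXB3 was 17.7, 13.6 and 14.0 FPKM in day 6 CTRL and 10.8, 8.49 and 8.41 FPKM in day 6 IND (-0.70 ± 0.12, adjusted p = 0.00321). On day 14 it was 21.2, 16.2 and 20.02 FPKM in CTRL and 22.6, 23.5 and 23.5 FPKM in IND (0.29 ± 0.10, adjusted p = 0.0976). HOXB4 was 22.5, 20.2 and 18.7 FPKM in day 6 CTRL and 15.3, 14.95 and 11.8 FPKM in IND (-0.54 ± 0.12, adjusted p = 0.0132). On day 14 it was 28.0, 26.0 and 24.9 FPKM in CTRL and 33.6, 31.7 and 31.4 FPKM in IND (0.31 ± 0.08, adjusted p = 0.0327), and this call held in 1 of 6 fits without a library.

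These were the 2 members called in the interaction of day and induction. HOXB3 had an adjusted p of 0.0427 and HOXB4 of 0.0203 over the 30 libraries from days 6 to 14, of 28 HOX genes tested and 2.38% of all genes called. Leaving out 1 library left between 0 and 3 members called, and none without day 14 CTRL replicate 2 or 3 or day 14 IND replicate 1. On day 8 HOXB3 was -0.99 ± 0.14 and HOXB4 -0.78 ± 0.19, with adjusted p of 0.00236 and 0.0403. The HOXB3 and HOXB4 calls held in 6 and 4 of 6 fits that left out 1 library on day 6, and in 6 and 3 of 6 on day 8.

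HOXC4 was called lower in IND on days 6, 8 and 14, and in fits that left out 1 library the call held in 1, 6 and 1 of 6. Its day 8 levels were 11.5, 9.39 and 10.7 FPKM in CTRL and 3.73, 4.16 and 6.09 FPKM in IND (-1.17 ± 0.17, adjusted p = 0.00215), which do not overlap. On day 14 the CTRL libraries had 23.4, 23.5 and 18.3 FPKM and the IND libraries 17.6, 15.7 and 16.2 FPKM (-0.39 ± 0.11, adjusted p = 0.0376). HOXD3, called on days 12 and 14, was 0.481, 0.272 and 0.237 FPKM in day 12 CTRL and 0.0799, 0.0729 and 0.123 FPKM in IND (-1.85 ± 0.41, adjusted p = 0.0381). Its call held in 1 of 6 such fits on day 12 and 3 of 6 on day 14, and 74.1% of its exonic bases are shared with other genes.

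**Figure D4:**
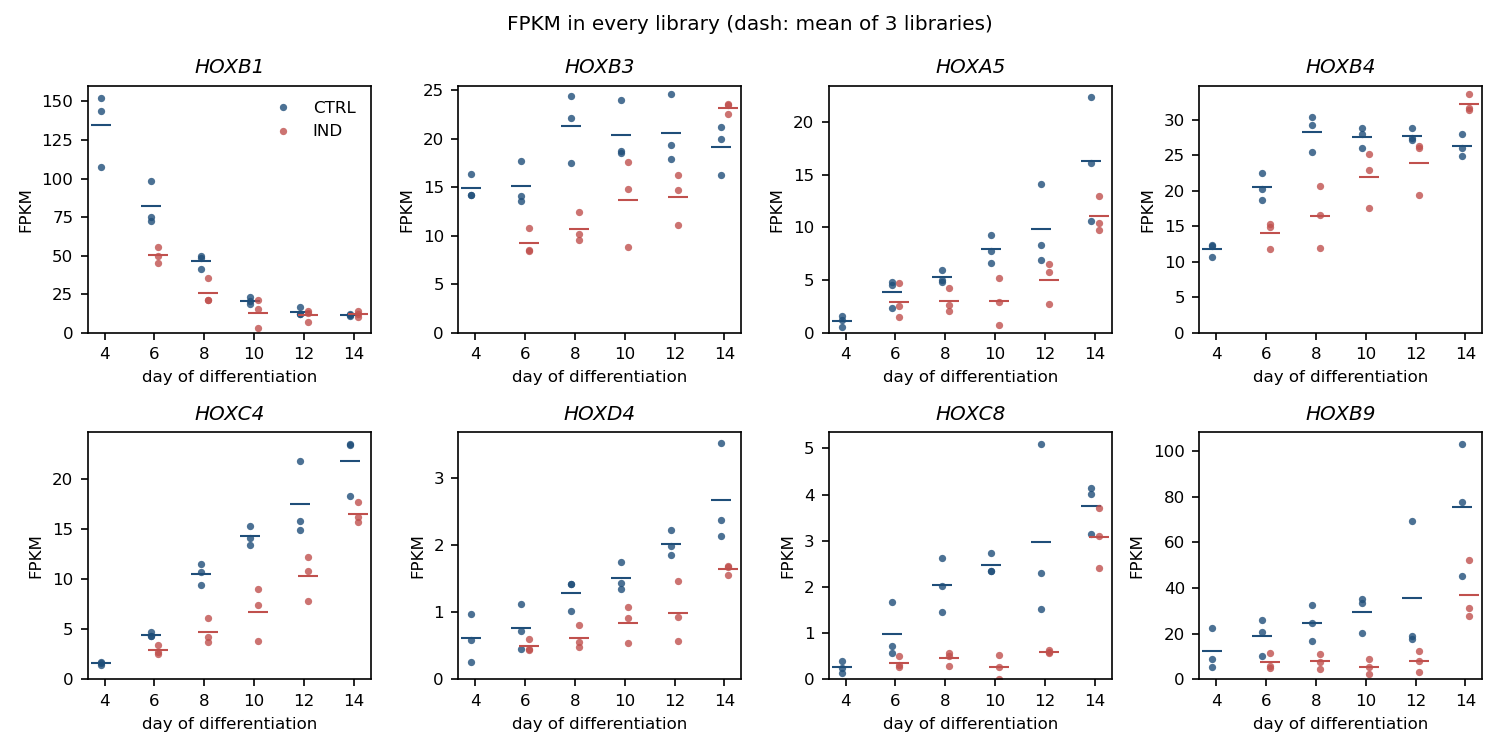
FPKM of 8 HOX genes in every library against day of differentiation, blue for CTRL (day 4 included) and red for IND, with a dash at each mean of 3. HOXB1 falls to 11.4 FPKM in CTRL and 12.1 FPKM in IND on day 14, HOXC4 and HOXC8 separate by day 8, and HOXB9 ranges widely between wells in CTRL.

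Genes called on a single day were HOXB1 (-0.70) and HOXB2 (-0.48) on day 6, HOXA3 (-0.48), HOXA4 (-0.99), HOXC6 (-1.73) and HOXD4 (-1.07) on day 8, and HOXB8 (-0.97) and HOXD9 (-1.88) on day 14, all log2 fold changes of IND against CTRL. In the same order, the calls held in 6, 2, 2, 5, 3, 2, 2 and 3 of 6 fits that left out 1 library. HOXB9 and HOXA5, the most abundant posterior and HOXA genes, were not called on any day with all libraries. HOXB9 was 35.1, 33.6 and 20.02 FPKM in day 10 CTRL and 8.94, 2.21 and 5.12 FPKM in IND, groups that did not overlap, with a log2 fold change of -2.43 ± 0.50 and an adjusted p of 0.0734. HOXA5 was 7.74, 9.30 and 6.63 FPKM in day 10 CTRL and 5.23, 0.764 and 2.86 FPKM in IND (-1.39 ± 0.59, adjusted p = 0.343). Without IND replicate 2, HOXA5 was called lower on day 10 (-0.96 ± 0.27, adjusted p = 0.0489) and HOXB9 was not (-2.07 ± 0.44, adjusted p = 0.0698).

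Day 10 depended on 1 library. Without day 10 IND replicate 2, 14 of 26 tested HOX genes were called lower and none higher, against 9.51% of all genes tested called lower, and HOXC8 had a log2 fold change of -2.62 ± 0.27 (adjusted p = 1.87e-05).

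Between days 12 and 14, a comparison added after seeing the data, 7 of 27 HOX genes were called higher in IND (1.21% of all genes) and 0 of 28 changed in CTRL by edgeR, where 9 of all genes were called (0.0458%), 5 HOX genes had an unadjusted p under 0.05 and DESeq2 called 1. In IND these were HOXB3 (0.71), HOXB8 (1.63), HOXB9 (2.25), HOXC5 (1.53), HOXC6 (2.10), HOXC8 (2.35) and HOXD8 (1.82), and none was called in fits without day 14 IND replicate 1 or 3, and 2 without replicate 2. The change in the IND-against-CTRL difference between these days was itself called for none of 28 HOX genes (0.0267% of all genes called), with an unadjusted p under 0.05 for 3. From day 6 to day 12 the difference changed for HOXB2 (0.76 ± 0.19, adjusted p = 0.0438, 0.860% of all genes called). So a narrowing of the difference by day 14 was not shown by this test.

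Markers of other cell types moved in the same libraries, and their part in the HOX results was not tested. Of all genes tested, 2.37%, 6.67%, 1.18%, 3.04% and 5.22% were called lower in IND on days 6, 8, 10, 12 and 14. Called higher were 246 of 19133, 1455 of 19433, 170 of 19858, 475 of 19924 and 612 of 19055 genes. The 6 coelomic epithelium and early gonad markers (GATA4, WT1, LHX9, UPK3B, EMX2 and NR5A1) summed to 87.0 to 116 FPKM in day 8 CTRL and 32.7 to 41.5 FPKM in day 8 IND, and 4 of 5 tested were called lower in IND. The 8 neuron markers summed to 119 to 198 FPKM in day 14 CTRL and 53.5 to 69.9 FPKM in IND, with 6 of 8 called lower. The well with the highest HOXB9 of its group also had the highest neuron marker sum on days 8, 12 and 14 in CTRL. In IND this was so on days 6, 12 and 14. It was not so on day 4, on days 6 and 10 in CTRL, or on days 8 and 10 in IND. On day 12 in CTRL the well was replicate 1, with 131 against 67.0 and 73.5 FPKM of neuron markers. The 4 cardiac muscle markers summed to 141 to 205 FPKM in day 6 CTRL and 64.4 to 85.1 FPKM in day 6 IND, and to 107 to 155 and 49.3 to 55.3 FPKM on day 8, with MYL7 and TNNT2 called lower on both days. Of the 3 endothelial markers, KDR was called lower on day 6, CDH5 and PECAM1 higher on days 8 and 12, and PECAM1 higher on day 10. Of the gonadal markers, WT1, LHX9 and NR5A1 had at most 3 counts in every day 4 library.

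Other genes of HOX biology were counted in the same fits, and the shares of all genes called are those given above for the cell type markers. Of 9 TALE cofactors, which form DNA-binding partners of HOX proteins, all were tested, and 4 were called lower in IND on day 8, PBX3 (-1.23 ± 0.09), MEIS2 (-0.47 ± 0.12), MEIS3 (-0.33 ± 0.09) and PKNOX1 (-0.30 ± 0.08), and none on days 6 and 14. PBX3 was the only one called on days 10 and 12, at -1.30 ± 0.15 and -0.77 ± 0.12. Of 10 axial regulators, 8 or 9 of them tested on each day, WNT3A, a posterior growth signal, was called lower on days 6, 8, 12 and 14, by -0.72, -0.65, -1.33 and -1.11, while CDX2, a driver of posterior HOX genes, was higher on day 12 (1.39 ± 0.32) and RARB on day 8 (0.48 ± 0.07), and ALDH1A2, a retinoic acid enzyme, was lower on day 14 (-0.37 ± 0.10).

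Of 17 non-coding genes of the clusters 8 were tested, and on day 8 HOTAIRM1 (-0.49), HAGLR (-0.86), HOXB-AS2 (-1.05) and HOXA-AS3 (-2.30) were lower in IND, and HAGLR again on day 14 (-0.90). Libraries did not keep strand, so that a HOX gene and its antisense partner cannot be told apart in the exonic bases that they share. Of 11 chromatin regulators only CBX2, a Polycomb subunit, was called, higher on day 8 (0.30 ± 0.08). With 1455 of 19433 genes called higher that day, 1 call of 11 does not set this list apart. Of the ParaHox and EVX genes 1 of 2 tested, PDX1, was called higher on day 8 (3.17 ± 0.68), at a low level. All 5 genes of this list summed to 0.225, 0.371 and 0.132 FPKM in the day 8 CTRL libraries. In day 8 IND the sums were 0.966, 1.11 and 0.273 FPKM, and that of replicate 3 lay within the CTRL range. In CTRL on day 14 against day 4, 6 of 9 axial regulators tested were called lower and 1, WNT3A, higher (2.28 ± 0.24). Of all genes tested, 22.9% were called lower and 24.6% higher.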

How the data were processed

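Bulk RNA-seq of 33 libraries was analysed. The authors deposited raw fragment counts per gene, from fastp 0.23.2, HISAT2 2.0.5 and featureCounts 1.5.0-p3 on GRCh38 with a non-directional poly-A library, and FPKM, which the authors also deposited and which scale with gene length, library total and a library constant. Trimming, mapping and counting tools are as in the submitters' processing notes. Levels are FPKM and tests used the counts. Genes were kept with filterByExpr, TMM-normalized and tested with edgeR 4.0.16 (R 4.3.3) quasi-likelihood fits of the 2 groups compared, with Benjamini-Hochberg adjustment. The interaction used the 30 libraries after day 4. DESeq2 1.42.0, limma 3.58.1, other size factors and filters, a replicate block and leaving out each library were alternatives. Tests were checked on simulated counts. Members and lists were chosen with earlier results of these data known. Values per library are given for the highest member of each cluster on day 14 in CTRL and for members called on 2 or more days of IND against CTRL, members called on 1 day are named with their fold change, and at most 4 called genes are named from each other list. HOXB1 on day 4 and WNT3A in CTRL were chosen after their values were seen. Of the 39 genes, 1 is in all counts and sums but is not reported here by itself. Groups came from the labels. Promoter letters are from RefSeq (GRCh38.p14). Proteins were not analysed here. With 23940837 to 51912815 counts per library, a gene at 3 counts or fewer was taken as at the floor, and this covers counting error only. 25 of the 39 genes share exonic bases with another gene in GENCODE 29.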

Additional observations from a re-analysis of the deposited data

Results flagged for a closer look

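HOXB3 and HOXB4 are listed here because the IND-against-CTRL difference depended on the day, by the interaction term over days 6 to 14 (adjusted p = 0.0427 for HOXB3 and 0.0203 for HOXB4). HOXB2 is listed because its difference changed from day 6 to day 12 (0.76 on the log2 scale, adjusted p = 0.0438), in a contrast added after seeing the data, and its call held in 10 of 30 fits that left out 1 library.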

How the results depend on the processing

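The counts of HOX genes called depended on the fit. Of 1552 refits of the 119 single-gene calls, 1329 kept the call, 223 kept the direction only and 0 reversed. The refits reuse nearly the same libraries on genes already called, so a reversal was unlikely and its absence is no test of the directions. For IND against CTRL, dropping the filter on low counts gave 8, 15, 1, 9 and 10 calls on days 6, 8, 10, 12 and 14, DESeq2 gave 16, 6 and 10 on days 8, 10 and 12, limma-trend on log2(FPKM + 1) gave 2, 1, 0 and 2 on days 6, 10, 12 and 14, 1 fit over all 33 libraries gave 2, 12, 5 and 0 on those days, and a mean of at least 50 counts gave 1 on day 12. Leaving out 1 library gave 2 to 10, 3 to 18, 0 to 14, 0 to 5 and 0 to 11 calls on the 5 days, and 5 to 17 for CTRL on day 6 against day 4. For day 14 against day 12, IND gave 17 (no filter), 14 (DESeq2), 1 (limma-trend), 4 (33 libraries) and 0 to 8 (1 library left out), and CTRL 5 (no filter), 1 (DESeq2) and 0 to 4. The interaction gave 10 (no filter), 4 (DESeq2) and 0 to 3, the difference of day 12 minus day 6 gave 2 (no filter), 0 (limma-trend) and 0 to 1, and that of day 14 minus day 12 gave 3 (no filter). The share over all genes is not given for the alternative fits, except for day 10 without IND replicate 2. Their counts therefore describe HOX genes only. The cause was not tested. Replicate numbers do not pair the wells: deviations of same-numbered libraries correlated between -0.11 and 0.14, and a replicate block gave 9 and 12 calls for IND on days 6 and 12, 14 for CTRL on day 6 against day 4, 14 for IND on day 14 against day 12 and 0 for the difference of day 12 minus day 6. Members at the floor are limited by depth. Where 1 group was near 0, as for HOXC5 and HOXD9 on day 4, the size of a fold change rests on few counts.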
